A study of Homo sapiens with 6 samples.

Results

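The genes described here are NFE2L2, which encodes the transcription factor NRF2, and 8 genes known as its targets: SQSTM1, HMOX1, SRXN1, FTL, FTH1, NQO1, SLC7A11 and TXN. They were taken by symbol from the deposited table, and all 9 were found among its 1099 genes. Poly(A) RNA came from 6 libraries of wild-type human cells labelled A549, a lung adenocarcinoma line, grown in serum-containing medium. Of these, 3 libraries were from cells given DMSO, the vehicle, and 3 from cells given F/B extract, each for 24 h. No source used here gives the dose. By the series title the extract combines broccoli seed with Flos Sophorae Immaturus, flower buds of a legume tree used as food and medicine.

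NRF2 is held at a low level in unstressed cells by KEAP1, an adaptor that hands it to a CUL3 and RBX1 ubiquitin ligase for degradation. Electrophiles modify cysteines of KEAP1, NRF2 then escapes and, paired with a small MAF protein, binds antioxidant response elements (AREs) near genes of thiol, quinone, haem and iron metabolism. Broccoli seed is known to hold glucoraphanin, the precursor of the electrophile sulforaphane. The autophagy receptor p62, the product of SQSTM1, also binds KEAP1 and can free NRF2. A549 is known for an inactivating KEAP1 mutation that keeps NRF2 active without any treatment.

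Ferritin is also known to be controlled at translation, by iron regulatory proteins that bind its messages, so that part of its control leaves the RNA level untouched.

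Sequences are shown for the ARE letters, since NRF2 is known to act through them. AREs were searched in the 250 bases before each RefSeq start site (GRCh38.p14), for which windows were held for 6 of the 9 genes: NFE2L2, SQSTM1, SRXN1, FTL, NQO1 and TXN. SQSTM1 had 3 windows, NFE2L2 had 2 and each of the others 1. Neither the core letters TGACNNNGC nor their variant TGAGNNNGC, read on both strands, was found in the windows of SRXN1, FTL or TXN. Bases farther from the start sites were not searched, so these windows do not show whether a gene has or lacks an ARE. The variant was found in 3 of the 9 windows, namely 1 of 3 for SQSTM1, 1 of 2 for NFE2L2 and the single one for NQO1, and TGACNNNGC in none. Over all 35116 such windows, 10.9% hold TGACNNNGC and 14.8% hold TGAGNNNGC, so these matches are a description of letters only. On 1 strand a site cannot match both, since the motifs differ at the fourth letter. The matches for the 2 genes that rose are given in capitals with 10 flanking bases on each side. That of SQSTM1 lies at chr5:179820705-179820733 on the plus strand, in a window with 198 of its 250 bases in annotated exons of SQSTM1. This match starts 190 bases before a start site that lies inside the annotated span of the gene. That of NQO1 lies at chr16:69726661-69726689 on the minus strand, where the letters read as the reverse complement of the motif, in a window that lies wholly in annotated exons of NQO1.
SQSTM1: gggtcagcaaTGAGGGGGCcgggagacct
NQO1: tcctggagctGCAGCCTCAgcatcctccg
The window of NFE2L2 at chr2:177264132-177264381, minus strand, is shown whole because NRF2 is known to act on its own gene. It holds the variant 2 times, 146 and 16 bases before its start site, which lies downstream of that of the other NFE2L2 window. That other window, at chr2:177264728-177264977, lies wholly in annotated exons of NFE2L2 and holds neither motif. The window shown overlaps no exon of NFE2L2 in GENCODE 29 but 23 bases of an exon of the antisense gene AC079305.1.
NFE2L2: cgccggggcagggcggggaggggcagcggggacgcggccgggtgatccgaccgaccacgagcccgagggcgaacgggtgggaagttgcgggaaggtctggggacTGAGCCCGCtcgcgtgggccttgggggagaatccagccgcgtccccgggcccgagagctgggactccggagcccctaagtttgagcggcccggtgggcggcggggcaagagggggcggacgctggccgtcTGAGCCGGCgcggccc

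The table holds the 1099 genes with the smallest p-values of 11289 that the authors tested, or 9.74%, so every gene in it was selected on this comparison. Of a gene outside it, nothing more is known than that its p-value was larger or that it went untested. Estimated counts over the listed genes summed to 3084337 to 4640114 per library. The library names in the labels begin with AGS, the name of a gastric adenocarcinoma line, not with A549. The gene MTAP, deleted in A549 as far as is known, gave 48.9 to 60.5 TPM (transcript abundance scaled to a fixed library total). These data do not settle which line was used, nor the state of KEAP1 in it. Of 9 lung and 5 leukocyte markers 0 were in the table, which says nothing of their expression, since genes were listed for their p-value. Nothing says that replicates came from separate cultures, so p-values are against a spread between libraries that may be technical. In bulk RNA, a change in every cell and a change in the mix of cells cannot be told apart.

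With extract, the RNA of 7 targets was higher by 1.15-fold to 1.65-fold and that of NFE2L2 and TXN was lower. By estimated fold change SQSTM1 rose the most, ahead of HMOX1, SRXN1, the ferritin subunits FTL and FTH1, NQO1 and SLC7A11. Among these 7, only FTL and FTH1 were compared with each other by a test. Parts of the order were not stable. As log2 ratios to NFE2L2 in TPM, the difference between groups was 0.35 for SLC7A11 and 0.31 for NQO1. Without extract replicate 1, the log2 fold change was 0.25 for FTL and 0.27 for FTH1. By edgeR's quasi-likelihood test with Benjamini-Hochberg adjustment, 7 of the 9 genes were called higher, where 29.1% of all listed genes were, and 2 were called lower, where 53.0% were. In 7 the 3 extract libraries all lay above the 3 vehicle libraries (34.6% of listed genes) and in 2 all below (63.9%). Every listed gene had passed a selection for small p-values, so these counts are no evidence about the pathway. The median log2 fold change of the 9 genes was 0.29, against -0.22 over all listed genes. Leaving out vehicle replicate 2, then vehicle replicate 3, then extract replicate 2 left 2, 3 and 2 genes called higher and 0, 1 and 0 called lower, and leaving out extract replicate 1 left 1 called lower. The libraries were also put on 4 other scales, set by sums, TMM or DESeq2 size factors of the listed genes or by the deposited TPM. On each of them the edgeR test called 7 higher and 0 lower, and at an unadjusted p under 0.05 it had 1 lower, TXN, on the TPM-based scale and 0 on the other three.

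The listed markers of gastric and intestinal epithelium were lower in the same libraries. Of 11 such genes 4 were in the table, and all 4 were called lower by edgeR, as were 53.0% of all listed genes. How the rest of the 11 moved is not known. VIL1, which encodes the actin-bundling protein villin, had a log2 fold change of -0.42 (adjusted p by edgeR = 0.00132), and CDH17, a cadherin gene of gut epithelium, one of -0.43 (0.00848). The secreted-protein genes TFF1 and REG4 were at -0.83 (adjusted p by edgeR = 0.0156) and -0.78 (0.0228). VIL1, CDH17 and TFF1 were called on all 4 other scales and REG4 on 1. Leaving out vehicle replicate 2 ended the calls of CDH17 (adjusted p by edgeR = 0.0587) and TFF1 (0.0820), and that of REG4 was lost without any 1 library but extract replicate 1 (up to 0.122). The summed level of the 4 ran from 327 to 341 TPM with vehicle and from 224 to 256 with extract, without overlap. All 4 were listed for differing in this comparison, so the separation of their sum adds no support. The part of these 4 genes in the changes of the 9 genes was not tested.

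**Figure D1:**
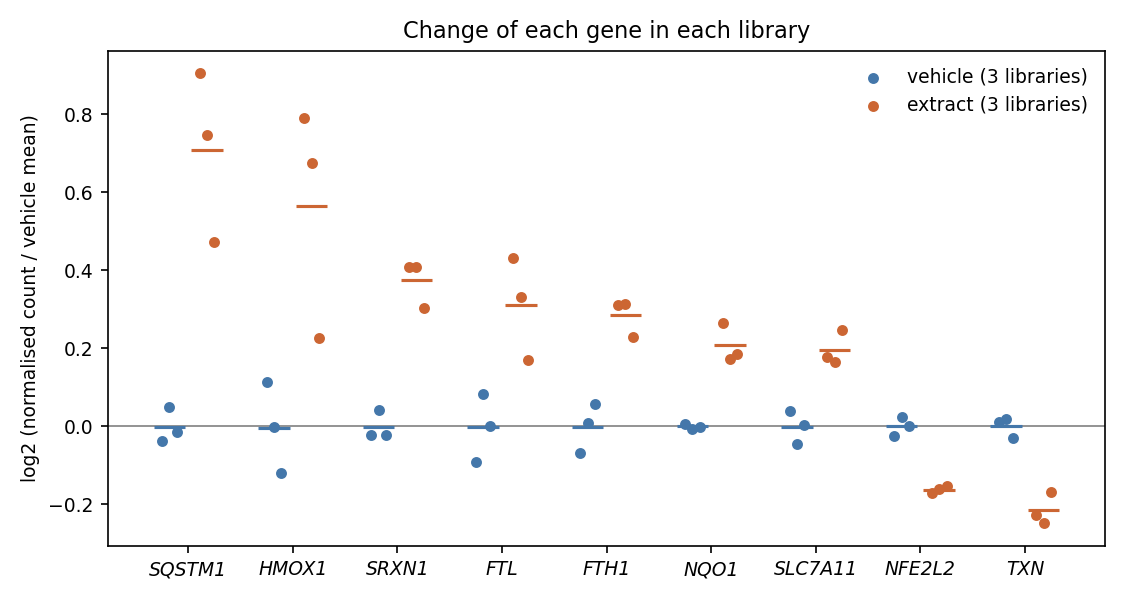
Change of each of the 9 genes in each library, as log2 of the normalised count over the vehicle mean (y axis, 3 points per group, bars at the group mean). In SQSTM1 to SLC7A11 all extract points lie above all vehicle points, and in NFE2L2 and TXN all lie below.

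The regulator itself was slightly lower. NFE2L2 (ENSG00000116044, GRCh38 chromosome 2, 177227595 to 177392697, minus strand) was at 4248, 4394 and 4321 normalised counts in vehicle replicates 1 to 3 and at 3837, 3864 and 3886 in extract replicates 1 to 3. Normalised counts are rounded estimated counts divided by library size factors. The groups did not overlap, and both were tight: 4321 ± 72.6 with vehicle and 3863 ± 24.6 with extract (mean ± SD, n = 3 each). The log2 fold change was -0.16 (SE 0.04, adjusted p by edgeR = 0.0288). In TPM the groups overlapped, since extract replicate 3 at 154.68 stood above vehicle replicate 1 at 153.08. The direction hung on the scale. The value was -0.08 on the scale that the deposited TPM imply, and when the listed genes alone set the scale it was -0.03 by sums, -0.01 by TMM and 0.01 by DESeq2 size factors, with an edgeR adjusted p of 1 in each. The call was also lost without vehicle replicate 2 (adjusted p by edgeR = 0.159), vehicle replicate 3 (0.113), extract replicate 1 (0.0662) or extract replicate 2 (0.138). NRF2 is controlled mainly as a protein, which was not measured.

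SQSTM1 (ENSG00000161011, chromosome 5, 179806398 to 179838078, plus strand), which encodes the receptor that carries ubiquitinated cargo and KEAP1 into autophagosomes, was at 6583, 6994 and 6682 normalised counts with vehicle. With extract it was at 12649, 11331 and 9365. Every extract library exceeded every vehicle library, but extract replicate 3 stood well under the other two. The means were 6753 ± 215 and 11115 ± 1653 (SD, n = 3 each), a 1.65-fold rise or a log2 fold change of 0.72 (SE 0.09, adjusted p by edgeR = 0.00318). The call was kept under all 16 alternatives, among them the 6 that left out 1 library, with log2 fold changes from 0.62 to 0.89 and edgeR, DESeq2 or limma-voom adjusted p up to 0.0256. In the authors' deposited table SQSTM1 had rank 14 by p-value, and the next of these genes, FTH1, had rank 83. None of the 9 was among the 11 genes that this table marks as significant.

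HMOX1 (ENSG00000100292, chromosome 22, 35380361 to 35394214, plus strand) encodes haem oxygenase 1, which opens the haem ring and releases iron, carbon monoxide and biliverdin. It was at 379, 350.004 and 322 normalised counts with vehicle and at 607, 559.8 and 409.7 with extract. The gap between the groups was narrow, because extract replicate 3 lay close above vehicle replicate 1. The means of 350.4 ± 28.3 and 525 ± 103 (SD, n = 3 each) gave a log2 fold change of 0.59 (SE 0.14, adjusted p by edgeR = 0.0280), and its spread with extract was the widest of the 9 genes relative to its mean. The call was lost when any 1 of vehicle replicate 2 (adjusted p by edgeR = 0.126), vehicle replicate 3 (0.110) and extract replicate 2 (0.115) was left out, with log2 fold changes of 0.59, 0.53 and 0.54. HMOX1 is also held down by the haem sensor BACH1, whose gene was not in the table.

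Of the thiol enzymes, 1 rose and 1 fell. SRXN1 (ENSG00000271303, chromosome 20, 646615 to 653370, minus strand) encodes sulfiredoxin, which restores over-oxidised peroxiredoxins. It was at 1164, 1217 and 1164 normalised counts with vehicle and at 1569.8, 1569 and 1458 with extract, so that the groups were far apart and each was tight. The means were 1181 ± 30.7 and 1532 ± 64.2 (SD, n = 3 each), with a log2 fold change of 0.37 (SE 0.05, adjusted p by edgeR = 0.00411). This call, like that of SQSTM1, was kept under all 16 alternatives, with values from 0.36 to 0.55.

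TXN (ENSG00000136810, chromosome 9, 110243811 to 110256640, minus strand), the gene of thioredoxin, which reduces protein disulfides and takes its electrons from thioredoxin reductase, went the other way. It was at 3879, 3898 and 3769 normalised counts with vehicle and at 3289.5, 3241 and 3426 with extract, without overlap. The log2 fold change was -0.21 (SE 0.04, adjusted p by edgeR = 0.0146), from 3849 ± 69.4 to 3319 ± 96.2 (SD, n = 3 each). In TPM the groups overlapped, with extract replicate 3 at 627.8 and vehicle replicate 3 at 624.72. TXN stayed lower on the 4 other scales, at -0.13 on the TPM-based scale, -0.08 by sums, -0.06 by TMM and -0.04 by DESeq2 size factors, but the edgeR test was passed on none of them (adjusted p from 0.369 to 1). The call was also lost without vehicle replicate 2 (adjusted p by edgeR = 0.0870) or extract replicate 2 (0.0921).

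Both ferritin genes rose. Ferritin is a hollow shell that stores iron, built of heavy chains, which oxidise iron, and light chains, which help it to mineralise. FTL (ENSG00000087086, chromosome 19, 48965301 to 48966878, plus strand) was at 48251, 54425 and 51448 normalised counts with vehicle and at 69293, 64639 and 57841 with extract. FTH1 (ENSG00000167996, chromosome 11, 61959718 to 61967660, minus strand) was at 36249, 38196 and 39515 with vehicle and at 47157, 47261 and 44529 with extract. Neither gene's groups overlapped, and the extract libraries of FTL were spread more widely than those of FTH1.

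From these values, FTL rose from 51375 ± 3088 to 63924.5 ± 5759 (SD, n = 3 each), with a log2 fold change of 0.32 (SE 0.07, adjusted p by edgeR = 0.0291). FTH1 rose from 37987 ± 1643 to 46316 ± 1548, or 0.29 (SE 0.05, adjusted p by edgeR = 0.0118). The call of FTL was lost without any 1 of vehicle replicate 1 (adjusted p by edgeR = 0.0996), vehicle replicate 2 (0.0732), vehicle replicate 3 (0.107) and extract replicate 2 (0.117), and that of FTH1 without vehicle replicate 2 (0.0617) or extract replicate 2 (0.0728). GENCODE 29 names 16 pseudogenes after FTL and 25 after FTH1, and 7 after TXN, and how reads shared with such copies were counted is not given in the sources used here, so the levels of these genes are uncertain.

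NQO1 and SLC7A11 rose the least. NQO1 (ENSG00000181019, chromosome 16, 69706996 to 69726951, minus strand) encodes a reductase that turns quinones into hydroquinones and is widely used as a readout of NRF2. It was at 4953, 4911 and 4926 normalised counts with vehicle and at 5927, 5560.3 and 5611 with extract. The vehicle libraries were nearly equal, and every extract library exceeded them. From 4930.1 ± 21.2 to 5699 ± 199 (SD, n = 3 each), the log2 fold change was 0.21 (SE 0.04, adjusted p by edgeR = 0.0152). The call was lost when any 1 of vehicle replicate 2 (adjusted p by edgeR = 0.0845), vehicle replicate 3 (0.0658) and extract replicate 2 (0.0567) was left out.

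SLC7A11 (ENSG00000151012, chromosome 4, 138164097 to 138242349, minus strand) encodes the exchanger xCT, which imports cystine for glutathione synthesis and limits ferroptosis. It was at 7942, 7499.98 and 7753 normalised counts with vehicle and at 8742, 8669.9 and 9182 with extract. Here extract replicate 3 was the highest library, in normalised counts and in TPM alike, while in SQSTM1, HMOX1 and FTL it was the lowest extract library on both scales. The means of 7732 ± 222 and 8865 ± 277 (SD, n = 3 each) gave a log2 fold change of 0.20 (SE 0.04, adjusted p by edgeR = 0.0219), and the call was lost when any 1 of vehicle replicate 2 (adjusted p by edgeR = 0.125), vehicle replicate 3 (0.0862) and extract replicate 2 (0.0767) was left out. SLC7A11 overlaps the antisense gene SLC7A11-AS1, and the use of strand in counting is not given in the sources used here. Opposite-strand genes also overlap NFE2L2, SQSTM1, FTH1 and NQO1.

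On the TPM scale, which takes gene length into account and so allows levels of different genes to be compared, the ferritins stood far above the rest. FTL was at 6618 ± 279 TPM with vehicle and 8845 ± 551 with extract, and FTH1 at 3382 ± 153 and 4203 ± 78.0 (mean ± SD, n = 3 each). The order went on with TXN at 636 ± 15.8 and 594 ± 29.4, NQO1 at 358 ± 11.9 and 419.8 ± 13.99, SQSTM1 at 234 ± 7.98 and 394 ± 46.8, and NFE2L2 at 155 ± 1.85 and 147 ± 7.12. Lowest were SLC7A11 at 65.2 ± 2.18 and 78.7 ± 5.26, SRXN1 at 40.98 ± 0.639 and 56.1 ± 0.948, and HMOX1 at 22.03 ± 1.48 and 34.3 ± 5.72.

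Neighbours in this order were separate in all 6 libraries, apart from NQO1 and SQSTM1. With vehicle the lowest NQO1 library, at 344.5 TPM, stood above the highest SQSTM1 library, at 239.63, while with extract SQSTM1 ran from 347.13 to 440.73 and spanned the NQO1 values of 405.74 to 433.71. The ratio of FTL to FTH1 was 1.96 ± 0.0195 in vehicle TPM but 1.28 ± 0.0608 in estimated counts per base of deposited gene length (SD, n = 3), so the size of that gap depended on the length used.

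**Figure D2:**
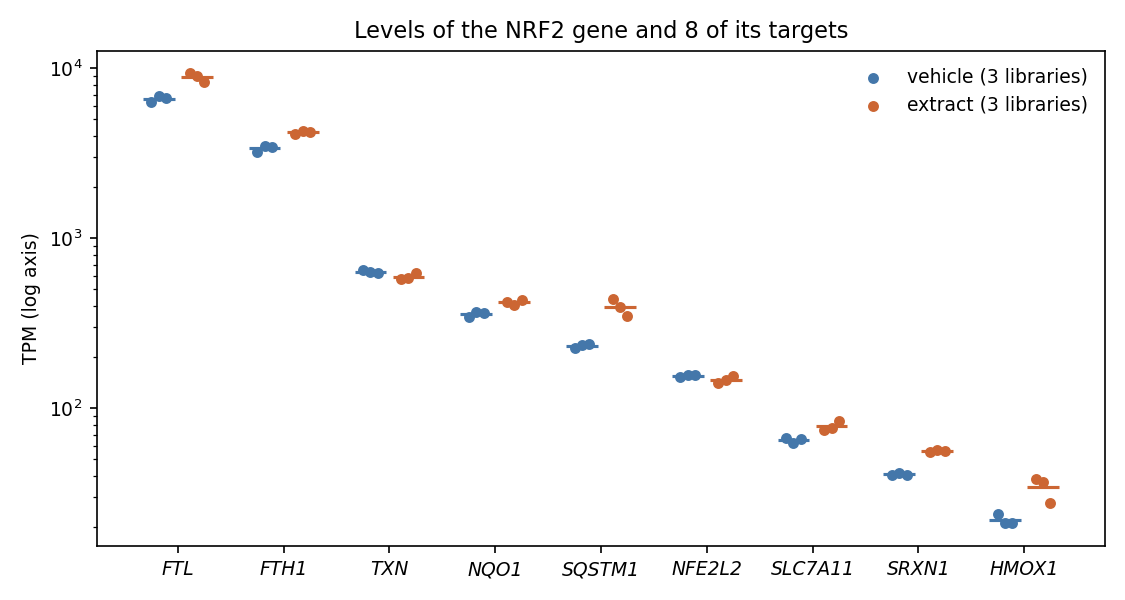
Level of each gene in TPM (log axis) in 3 vehicle and 3 extract libraries, ordered by the mean over all 6, with bars at group means. FTL and FTH1 stand at 3208.4 TPM or more in every library and HMOX1 at 38.23 or less.

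Ratios of 2 genes within a library do not depend on how libraries are scaled. Those of 7 targets to NFE2L2 were higher in every extract library than in any vehicle library. The share of all listed genes whose ratio to NFE2L2 separates in this way was not computed. Without division, 34.6% of listed genes were higher in every extract library. Every listed gene was selected on this comparison, so the count is no evidence about the pathway. The ratio of SQSTM1 to NFE2L2, in counts per base on the log2 scale, was 0.69, 0.73 and 0.69 in vehicle replicates 1 to 3 and 1.78, 1.61 and 1.33 in extract replicates 1 to 3. Its mean was thus 0.87 higher with extract (1.83-fold), with no overlap between the groups. The same difference was 0.73 for HMOX1, 0.54 for SRXN1, 0.47 for FTL, 0.45 for FTH1, 0.37 for NQO1 and 0.36 for SLC7A11. For TXN it was -0.05, and the groups overlapped: 1.87, 1.83 and 1.81 with vehicle against 1.78, 1.75 and 1.82 with extract.

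The exact two-sided permutation test over libraries gave p = 0.1 for each of the 7 higher ratios, which is the smallest value that 3 against 3 libraries allow, and p = 0.2 for TXN (adjusted over 9 ratios, 0.129 and 0.225). In counts per base, the proportion of the ferritin subunits did not differ beyond the spread between libraries, though so few libraries could miss a difference. The log2 ratio of FTL to FTH1 was 0.36 ± 0.07 with vehicle and 0.38 ± 0.09 with extract (SD, n = 3 each), a difference of 0.03 (exact permutation p = 0.7, adjusted over 9 ratios 0.7). That difference was 0.10 in TPM (exact permutation p = 0.3). There the ratio, not in log2, was 1.96 ± 0.0195 with vehicle and 2.11 ± 0.159 with extract (SD, n = 3 each). In counts per base the difference turned to -0.00027 without vehicle replicate 3 and to -0.02 without extract replicate 1.

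**Figure D3:**
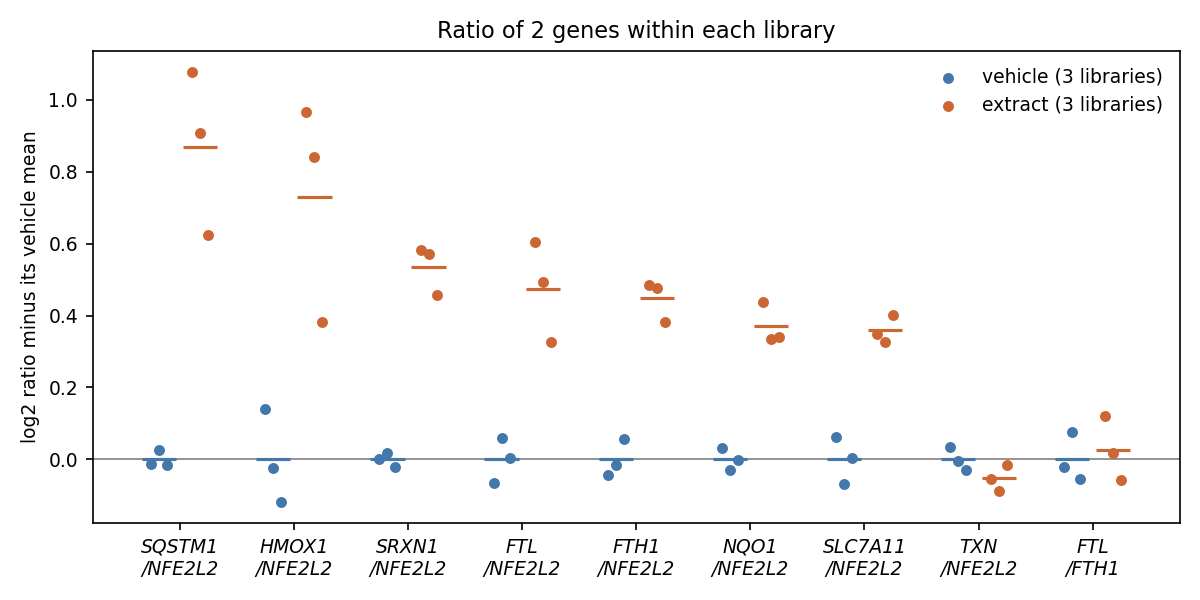
Within-library log2 ratio of 8 genes to NFE2L2, and of FTL to FTH1, each minus its vehicle mean (y axis, 3 points per group, bars at group means). The first 7 ratios are higher in every extract library than in any vehicle library, by 0.36 to 0.87 on average, while the last 2 overlap. The share over all listed genes was not computed.

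Scaling moved all 9 genes together. The 4 other scales raised the median of all listed genes by 0.08 (TPM-based), 0.14 (sums), 0.15 (TMM) and 0.17 (DESeq2 size factors), and the share of calls that were lower fell from 64.6% to 36.9%, 24.6%, 18.4% and 18.2%. Against the shift of 0.17, SLC7A11 went from 0.20 to 0.37 and NQO1 from 0.21 to 0.38. Each of the 4 scales raised all 1099 genes, so a call of a higher gene could hardly be lost on them, and the calls of the 7 targets there add no support. The decreases of NFE2L2 and TXN were called only on the scale that the deposited fold changes imply.

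**Figure D4:**
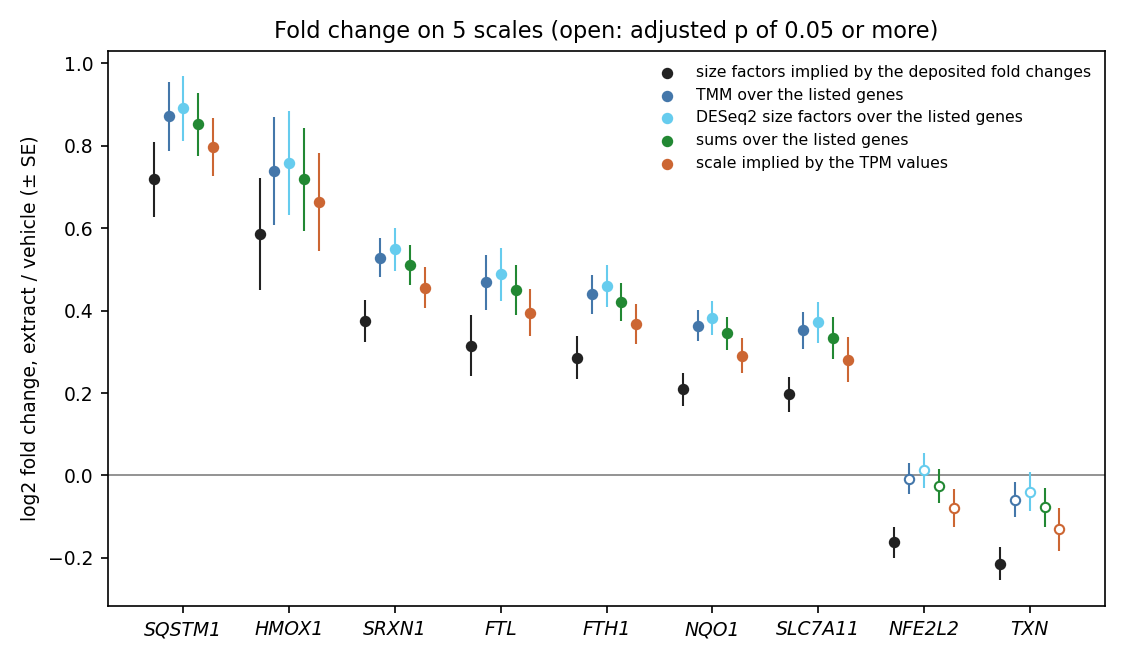
Log2 fold change of each gene with its SE on 5 scales, with filled points where the edgeR adjusted p was under 0.05 and open points elsewhere. The 7 targets that rose are filled on every scale, and NFE2L2 and TXN are filled on the first alone.

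The other genes of the pathway were looked up in the table by list, after the 9 genes above had been taken out. Of 41 other known NRF2 targets, among them GCLM and GCLC of glutathione synthesis, TXNRD1, PGD, ME1 and the aldo-keto reductases AKR1B10 and AKR1C1, 1 was listed. The 8 targets above were chosen with their place in the table known, and with them 9 of 49 were listed, so neither count can be read against the 9.74% of tested genes. This was TRIM16, a ubiquitin ligase of the tripartite motif family, and it was lower: 2028, 2055 and 2037 normalised counts with vehicle against 1842, 1725 and 1607 with extract, a log2 fold change of -0.24 (SE 0.05, adjusted p by edgeR = 0.0248) that was called on none of the 4 other scales. The call was lost without vehicle replicate 1, 2 or 3 or extract replicate 2 (edgeR adjusted p up to 0.122). Which of the 40 genes not listed had been tested by the authors is not given in the sources used here, so no count of unchanged targets can be had.

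Of 23 genes that control or partner NRF2, 3 were listed, where 9.74% of all tested genes were. This list and those below were chosen with earlier results of these data known, so counts of listed genes are no evidence about a pathway. RBX1, the RING subunit of the ligase that KEAP1 uses, was at -0.30 (SE 0.07, adjusted p by edgeR = 0.0279), and MAFK, a small MAF partner, at -0.25 (SE 0.07, adjusted p by edgeR = 0.0414). TRIM21, a ubiquitin ligase that is known to modify p62 and is also induced by interferon, was higher at 0.34 (SE 0.09, adjusted p by edgeR = 0.0421). The increase of TRIM21 was called on all 4 other scales and the 2 decreases on none. Since these scales raised every listed gene, a rise could hardly lose its call on them and a small decrease could hardly keep it. The same holds for the genes of the lists below. All 3 calls of this list were lost without any 1 of vehicle replicates 1, 2 and 3 and extract replicates 2 and 3. The edgeR adjusted p then reached up to 0.139, 0.195 and 0.238 for RBX1, MAFK and TRIM21. KEAP1, CUL3, BACH1, MAFF and MAFG were not in the table.

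No gene of the other iron-handling list was in the table (0 of 21), nor of haem and bilirubin metabolism (0 of 16). FTL, FTH1 and HMOX1 had been taken out of these lists first. Among the genes not listed were TFRC, the transferrin receptor, SLC40A1, the iron exporter ferroportin, NCOA4, the receptor that delivers ferritin to autophagy, and BLVRB, a biliverdin reductase. Of 33 other thioredoxin, peroxiredoxin and antioxidant enzyme genes 3 were listed, where 9.74% of all tested genes were. Catalase, CAT, which breaks down hydrogen peroxide, rose from a normalised count of 654 ± 28.3 to one of 835 ± 50.7 (SD, n = 3 each), or by 0.35 on the log2 scale (SE 0.07, adjusted p by edgeR = 0.0137), and was called on all 4 other scales. PRDX6, a peroxiredoxin, was at -0.18 (adjusted p by edgeR = 0.0381) and the glutaredoxin GLRX3 at -0.20 (adjusted p by edgeR = 0.0154), both called on none of them. Calls of all 3 were lost on leaving out vehicle replicate 2, vehicle replicate 3 or extract replicate 2 (edgeR adjusted p up to 0.0679 for CAT, 0.210 for PRDX6 and 0.0911 for GLRX3), and that of PRDX6 also without vehicle replicate 1 or extract replicate 3.

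SLC7A11 is a target of ATF4, the effector of amino acid stress, as well as of NRF2. Of 30 other genes of the ATF4 programme 2 were listed, where 9.74% of all tested genes were. CEBPB, a transcription factor that responds to several kinds of stress, rose with a log2 fold change of 0.42 (SE 0.07, adjusted p by edgeR = 0.00793), a call lost without vehicle replicate 2 (0.0520). The amino acid transporter gene SLC38A2 was at -0.15 and did not pass (adjusted p by edgeR = 0.108). SLC3A2, the partner chain of xCT, was not in the table, nor were ASNS, CHAC1, TRIB3 and DDIT3.

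Beside SQSTM1, 4 of 39 autophagy genes were listed, where 9.74% of all tested genes were. Of these 4, 3 were called higher and 1 lower, where 29.1% and 53.0% of all listed genes were. These counts are no evidence of a change in autophagy genes as a set. WIPI1, which binds the lipid of the forming autophagosome, was at 0.34 (SE 0.07, adjusted p by edgeR = 0.0195), the initiating kinase ULK1 at 0.25 (adjusted p by edgeR = 0.0366) and its partner ATG13 at 0.23 (adjusted p by edgeR = 0.0359), each called on all 4 other scales. The protease gene ATG4A was at -0.35 (adjusted p by edgeR = 0.0373), called on none of them. All 4 calls were lost on leaving out extract replicate 2 or 1 of vehicle replicates 2 and 3 (edgeR adjusted p up to 0.0866 for WIPI1, 0.179 for ULK1, 0.167 for ATG13 and 0.168 for ATG4A). Those of ULK1 and ATG13 were also lost without vehicle or extract replicate 1, and that of ATG4A without any 1 library. Other cargo receptors, NBR1, OPTN, TAX1BP1 and CALCOCO2, were not in the table.

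NQO1 and NFE2L2 are also known targets of the aryl hydrocarbon receptor (AhR), and 4 of 11 other genes of that list were in the table. The list was chosen with earlier results of these data known, so this count cannot be read against the 9.74% of tested genes. All 4 were called lower, as were 53.0% of all listed genes. CYP1A1, the cytochrome P450 gene that AhR induces most strongly, was at 295, 353 and 386 normalised counts with vehicle and at 151, 130.3 and 132 with extract, a log2 fold change of -1.33 (SE 0.13, adjusted p by edgeR = 0.00119). TIPARP was at -0.34, AHR itself at -0.24 and NEDD9 at -0.22, all 3 past the test but on none of the 4 other scales. Leaving out 1 library ended no call of CYP1A1 or TIPARP, while those of AHR and NEDD9 were lost on leaving out extract replicate 2 or 1 of vehicle replicates 2 and 3, and that of NEDD9 also without extract replicate 3 (edgeR adjusted p up to 0.103 and 0.133). NQO1 thus moved in the opposite direction to CYP1A1.

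**Figure D5:**
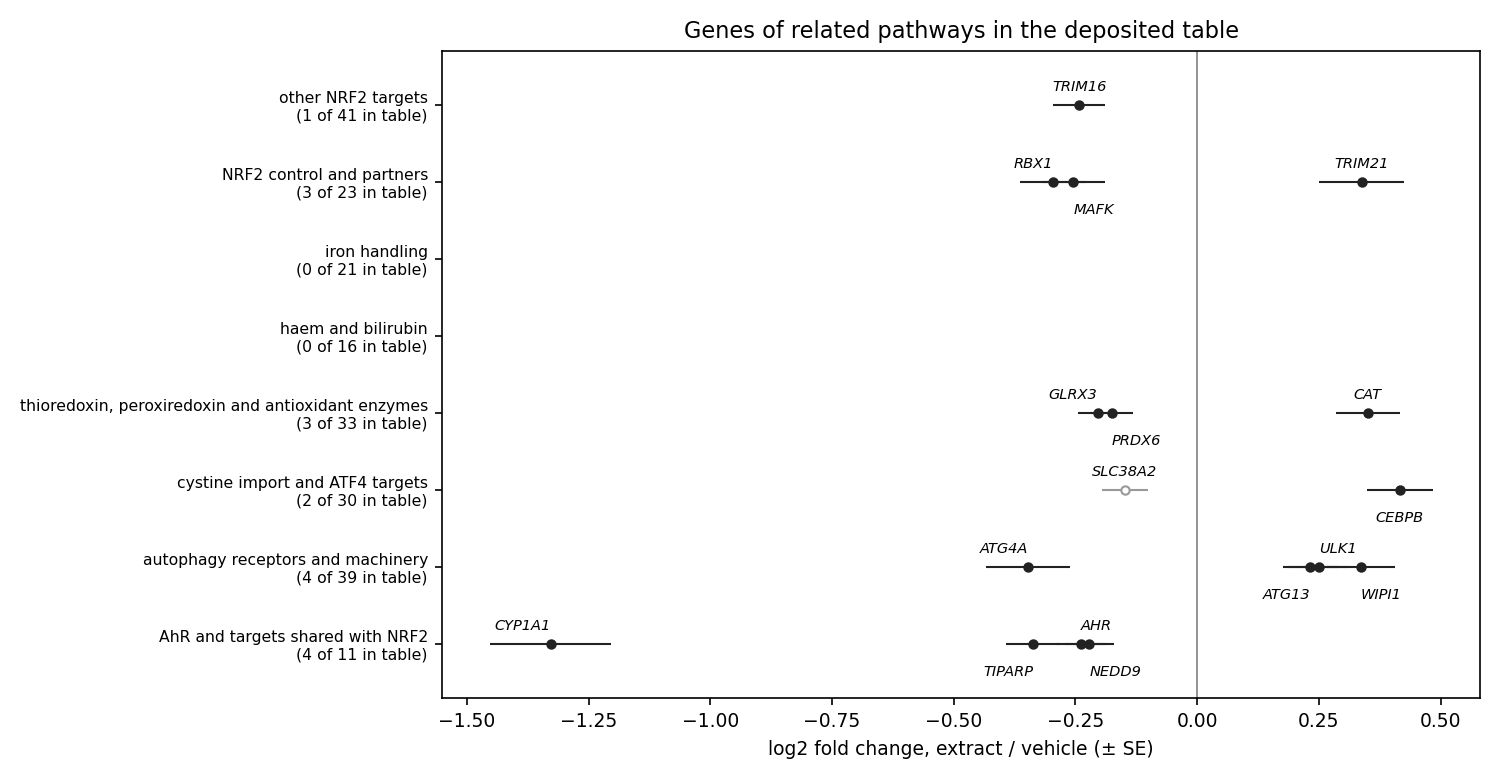
Log2 fold change with its SE of every listed gene of 8 related lists, from which the 9 genes had been taken out, with filled points where the edgeR adjusted p was under 0.05. A single gene of 41 stands in the row of other NRF2 targets, the iron and haem rows are empty, and CYP1A1 lies farthest from 0.

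Of 1028 named genes outside these 9 with at least 5 TPM in either group, the 5 closest to SQSTM1 over the 6 libraries included SNX8, ARHGEF11, MMP14 and SIPA1L1. Their Pearson r ran from 0.988 to 0.995 on log2 normalised counts, and their own log2 fold changes from 0.15 to 0.29. The 5 closest to NFE2L2 included RPS27A, S100A14, TRABD and SBDS (r from 0.993 to 0.998, log2 fold changes from -0.40 to -0.21). These are descriptions over 6 points that share the group difference on which every listed gene was selected, and the same size factors.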

How the data were processed

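The authors deposited 1 table with estimated counts per gene, TPM values, gene lengths and their own comparison. Per the file headers this comparison has p-values, raw and adjusted, and fold changes, both as a linear ratio and as log2. The deposited fold changes are vehicle over extract, and all values here are extract over vehicle. GRCh38.p13 is the build, per the submitters' processing notes, and no source used here names an aligner, counting program or annotation release. Of the deposited estimated counts, 31.8% to 35.9% per library held decimals, and all were rounded. The number of genes tested was recovered from the deposited p-values and adjusted p-values (largest relative error 4.62e-06 among p-values above 1e-04).

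Size factors were recovered from the authors' fold changes (0.920 to 1.23), since the listed genes were all selected as changed. These left a median absolute difference of 6.41e-05 in log2 fold change. All 1099 genes were fitted in edgeR 4.0.16 (R 4.3.3) by the quasi-likelihood test without covariates, and the spread was estimated from these selected genes, so p-values may be too small. Benjamini-Hochberg adjustment ran over 11289 genes with a threshold of 0.05. The SE is the absolute log2 fold change over the square root of F. Ratios were tested by exact permutation. DESeq2 1.42.0 and limma 3.58.1 served as alternatives, and the edgeR fit was tested on simulated data. All 9 genes passed edgeR's filter on low counts. Replicates differed by more than sampling noise (chi-square per degree of freedom 4.59 to 15.3 between pairs). The 9 genes and the lists were chosen with earlier results of these data known. Beside the 9, the rule named up to 6 listed genes per list, the 5 genes most like SQSTM1 and NFE2L2 each, and CYP1A1, and some of these are not reported here. Of 7 fibroblast and endothelial markers 1 was listed, COL1A1 at -0.33, and of 3 chromosome 9 genes lost in A549 1 was, MTAP.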

Additional observations from a re-analysis of the deposited data

How the results depend on the processing

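SQSTM1 and SRXN1 kept their call under all 16 alternatives, HMOX1 and FTH1 under 13, NQO1 and SLC7A11 under 12, FTL under 11, TXN under 9 and NFE2L2 under 7. The edgeR filter removed 0 genes, the minimum of 50 counts removed 10, and adjustment over the listed genes alone could lose no call. The 4 other scales raised every listed gene and so could hardly lose a higher call. Under the other 12 alternatives SQSTM1 and SRXN1 kept their call in 12, HMOX1 and FTH1 in 9, NQO1 and SLC7A11 in 8 and FTL in 7. Leaving out 1 library gave 2 to 7 of the 9 genes called higher and 0 to 2 called lower. Over all listed genes, with 320 called higher and 583 lower, it gave 50 to 287 and 128 to 570. With scales set by TMM, DESeq2 size factors or sums of the listed genes, and with the TPM-based scale, the genes called lower were 0 of the 9 on each, and 87, 86, 126 and 217 of all listed genes. With the replicate number as a block, 3 of the 9 were called higher and 0 lower by edgeR (7 and 2 at an unadjusted p under 0.05), and 90 and 232 of all listed genes. No pairing by replicate number was seen: deviations of same-numbered libraries from their group means correlated at -0.23, -0.01 and -0.03 over genes. Those of unlike-numbered libraries ran from -0.21 to 0.23. Over genes selected on this comparison, such values cannot show that the libraries were unpaired. Under DESeq2 and limma-voom 7 of the 9 were called higher and 2 lower, the same numbers as by edgeR. NFE2L2 changed sign, to 0.012, under DESeq2 size factors of the listed genes. The difference in the ratio of FTL to FTH1 ran from -0.020 to 0.069 when 1 library was left out, and was below 0 without vehicle replicate 3 (-0.00027) or extract replicate 1. The causes were not tested. Total depth of the libraries was not analysed here, since the table holds part of the genes.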
